A study of Mus musculus with 30 samples.

Results

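NIH/3T3 fibroblasts were compared after 2 h of cycloheximide with cells of the same line at 0 h, across all genes. The comparison rests on 6 of the 30 libraries of the series, replicates A, B and C at each of the 2 times, taken by the line, time and letter in their labels. The series followed mRNA in 2 mouse lines, NIH/3T3 and the embryonic stem cell line CGR8, at 0, 1, 2, 5 and 48 h. NIH/3T3 is an immortalised line of mouse embryo fibroblasts, kept here in serum and passaged below confluence. The genotype label of every NIH/3T3 library, 0 h included, is a ROSA26 SLT knock-in, and SLT is not spelled out. The treatment label, 0.1 µg/mL cycloheximide, is also the same at 0 h and at 2 h, so the time in the sample name alone separates the groups. The labels do not say whether replicates were separate cultures. The p-values of this comparison measure spread between libraries of the same time, which may therefore be technical. That spread was estimated over the NIH/3T3 libraries of all times, not from these 6 alone.

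Cycloheximide binds the ribosome and blocks the elongation step of translation. Proteins with short lives are lost while it acts, and among them are repressors of transcription and factors that destabilise mRNA. Immediate-early genes, which growth factors and stress switch on without new protein synthesis, are known to be superinduced by the drug. Their products include the AP-1, EGR and NR4A transcription factors, secreted signals, and inhibitors that shut the same pathways off again.

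The libraries held 19600461 to 30503109 counts assigned to genes. Levels are given as CPM, counts relative to the library total after scaling with its TMM factor, and compare libraries for a gene, not genes with each other. They are shares of the mRNA, so a higher level per cell and a smaller total of other mRNA cannot be told apart. The line matched its label. Marker levels use library totals alone, without the TMM factor. The summed level of 6 stem cell markers lay between 0.164 and 0.347 CPM at 0 h and between 0.166 and 0.476 CPM at 2 h, against at least 4433 CPM in CGR8. The fibroblast markers summed to 12699 to 13918 CPM at 0 h and to 9432 to 11617 CPM at 2 h, with Thy1 and Postn, both markers of the type, below 1 CPM throughout. Macrophage and endothelial markers summed to 3.42 to 4.26 CPM at 0 h and 2.19 to 3.25 CPM at 2 h, with Adgre1, a defining macrophage marker, at 0 counts in all 6 libraries, as was the stem cell factor Pou5f1.

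Replicate A at 2 h stood apart from replicates B and C. The median gene of replicate A differed from replicate B by 0.284 and from replicate C by 0.258 on the log2 scale, while B and C differed by 0.124. At 0 h the 3 pairs differed by 0.123 to 0.159. Replicate A had counts for 18904 genes against 21232 and 20653 in the others, and a TMM factor of 0.936 against 0.991 and 0.971. Among genes of all levels tested, 713 lay at least 1 log2 unit below the mean of the other replicates in A and 71 lay as far above. Genes named here are the 5 farthest on each side among those that reached 10 CPM in a 2 h library. The noncoding host gene Zfas1, whose introns carry small nucleolar RNAs, had 15.5, 118 and 131 CPM in replicates A, B and C, around a 0 h mean of 43.1 CPM. The host gene Snhg15 gave 5.07, 30.8 and 30.5 CPM in the same order, and Thoc6, a subunit of the mRNA export complex THO, gave 2.45, 14 and 15.1 CPM. Cxcl1, a chemokine, was at 1.36, 9.57 and 10.4 CPM, and Nfkbiz, an atypical IkB protein, at 2.73, 15.3 and 15.7 CPM. In each of these 5 genes, replicate A was below the 0 h mean and replicates B and C were above it. Above the other replicates lay Mir6236 with 29.6, 15.5 and 9.3 CPM, Aldh3a1 with 11.1, 5.72 and 6 CPM, Nr2f6 with 15.1, 9.41 and 6.9 CPM, the mitochondrial tRNA gene mt-Tp with 15.5, 8.01 and 9.04 CPM and Cbr2 with 27.7, 14.5 and 17.1 CPM.

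**Figure D1:**
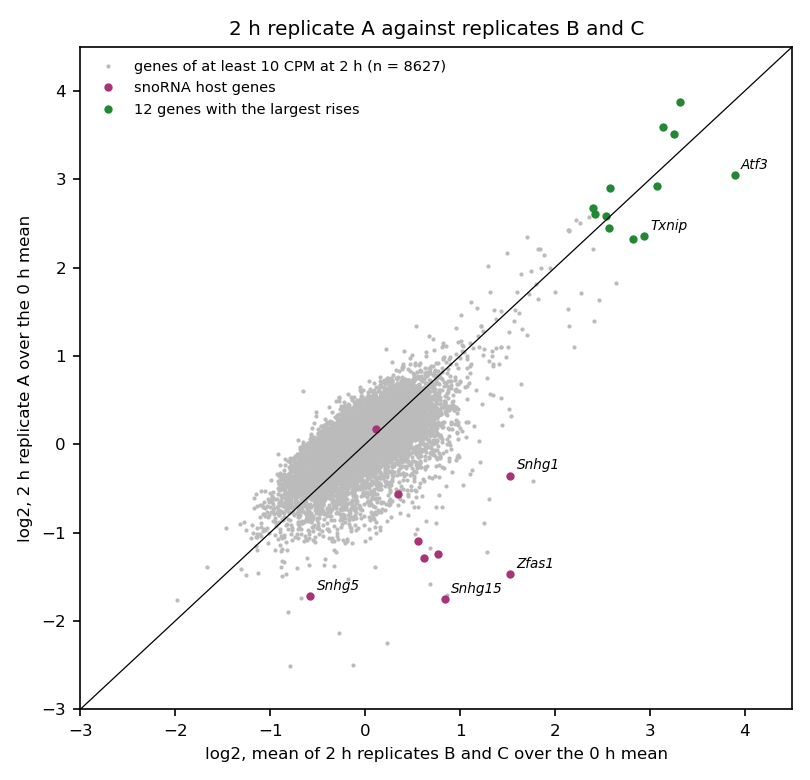
Change of each gene of at least 10 CPM at 2 h (grey points) in replicate A (vertical axis) and in the mean of replicates B and C (horizontal axis), as log2 ratios to the 0 h mean, with the line of equality. The 12 genes with the largest rises (green) lie near the line, and most snoRNA host genes (purple), Zfas1 and Snhg15 among them, lie far below it.

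Of 57186 gene identifiers, 13941 passed the filter on low counts and were tested. Of these, 4878 (35.0%) were called at 2 h against 0 h by edgeR's quasi-likelihood test at a Benjamini-Hochberg adjusted p under 0.05, 2250 higher (16.1%) and 2628 lower (18.9%). Most changes were small. Called and at least 2-fold were 209 higher genes (1.50%) and 209 lower genes (1.50%). In 6291 genes (45.1%) the 3 libraries of one time did not overlap with the 3 of the other, 3029 with 2 h above (21.7%) and 3262 with 2 h below (23.4%). Many of the genes with 2-fold changes in either direction were of low level or not protein coding. Of the 209 higher genes, 99 reached a mean of 10 CPM, 62 stayed under 1 CPM, 140 were protein coding and 33 were pseudogenes. Of the 209 lower genes, 60 reached 10 CPM, 68 stayed under 1 CPM, 152 were protein coding and 10 were pseudogenes, and 39 were long noncoding or unclassified.

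Without the 2 h replicate A the count of called genes was 5599, of which 1999 of the 2250 higher and 2309 of the 2628 lower genes were the same. Of the 209 genes at least 2-fold higher, 195 were again so, among 315 in all, and of the 209 lower 142, among 213. Left out in turn, the 2 h replicate C brought the count to 3050 and the 0 h replicate A to 3078, each more than 1.5 times fewer.

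The 12 largest rises among genes of at least 10 CPM, chosen from called genes whose libraries did not overlap, were in Atf3, Fosb, Egr2, Junb, Edn1, Txnip, Csrnp1, Skil, Btg2, Klf10, Egr1 and Hes1. Most of them encode factors that act on transcription. Atf3, a stress-induced bZIP factor, had 2.86, 3.03 and 3.71 CPM at 0 h and 26.5, 44.4 and 51 CPM at 2 h. All 3 libraries at 2 h lay far above 0 h, with replicate A lowest (log2 fold change 3.65 ± 0.21 SE, adjusted p = 4.51e-09). Fosb, a partner of JUN proteins in AP-1, had 1.93, 0.939 and 1.45 CPM at 0 h and 21.1, 14.6 and 14.2 CPM at 2 h (log2 fold change 3.54 ± 0.29 SE, adjusted p = 2.67e-07). Here replicate A was the highest library. Junb, another AP-1 subunit, had 59.1, 55.9 and 63.5 CPM at 0 h and 718, 523 and 523 CPM at 2 h (log2 fold change 3.30 ± 0.17 SE, adjusted p = 1.04e-09). Egr2, a zinc-finger factor, went from 14.3, 13 and 13.6 CPM to 155, 131 and 129 CPM (log2 fold change 3.34 ± 0.15 SE, adjusted p = 7.81e-10).

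Egr1, the founding EGR factor, had 125, 108 and 118 CPM at 0 h and 750, 636 and 601 CPM at 2 h (log2 fold change 2.50 ± 0.17 SE, adjusted p = 3e-08). Csrnp1, a nuclear protein of the cysteine and serine rich family, had 16, 13.8 and 15.7 CPM at 0 h and 114, 95.3 and 86.3 CPM at 2 h (log2 fold change 2.70 ± 0.13 SE, adjusted p = 8.82e-10). Klf10, a TGF-beta inducible repressor, had 54.6, 52.6 and 48 CPM at 0 h and 282, 315 and 301 CPM at 2 h (log2 fold change 2.53 ± 0.13 SE, adjusted p = 9.67e-10). Hes1, a helix-loop-helix repressor that represses its own gene, had 11.9, 11.4 and 9.93 CPM at 0 h and 67.6, 59.7 and 59.3 CPM at 2 h (log2 fold change 2.49 ± 0.12 SE, adjusted p = 7.81e-10). Skil, which encodes the SMAD corepressor SnoN, a protein of short life, had 32.8, 37.1 and 29.2 CPM at 0 h and 165, 250 and 219 CPM at 2 h (log2 fold change 2.68 ± 0.18 SE, adjusted p = 2.35e-08). Btg2, an antiproliferative protein that recruits the deadenylase complex, had 22.9, 26.1 and 28.8 CPM at 0 h and 156, 148 and 154 CPM at 2 h (log2 fold change 2.55 ± 0.11 SE, adjusted p = 3.99e-10), and its 3 libraries at 2 h were almost equal.

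Of the other genes with large rises, Edn1 encodes the secreted peptide endothelin. It had 2.86, 3.37 and 3.29 CPM at 0 h and 24.2, 26.8 and 26.7 CPM at 2 h (log2 fold change 3.02 ± 0.17 SE, adjusted p = 2.09e-09). Txnip, an alpha-arrestin that binds thioredoxin and limits glucose uptake, had 20.7, 19.4 and 24.4 CPM at 0 h and 110, 167 and 164 CPM at 2 h (log2 fold change 2.77 ± 0.17 SE, adjusted p = 5.1e-09), with replicate A lowest at 2 h and still above every 0 h library. All 12 rises kept their direction and their call under each alternative run, which their choice as large calls without overlap favours. Atf3, Junb, Edn1 and Txnip overlap an annotated gene on the opposite strand and Csrnp1 overlaps genes on both, and whether counting used strand is not stated, so their counts may hold reads of the other gene. The same limit applies to Jun, Fosl1, Mrtfa, Srf, Errfi1, Zfp36, Ccn2, Ereg, Bhlhe40, Arrdc3, Pik3r1, Col1a2, Col3a1, Cdk6, Sesn2 and Psma6, whose values follow.

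**Figure D2:**
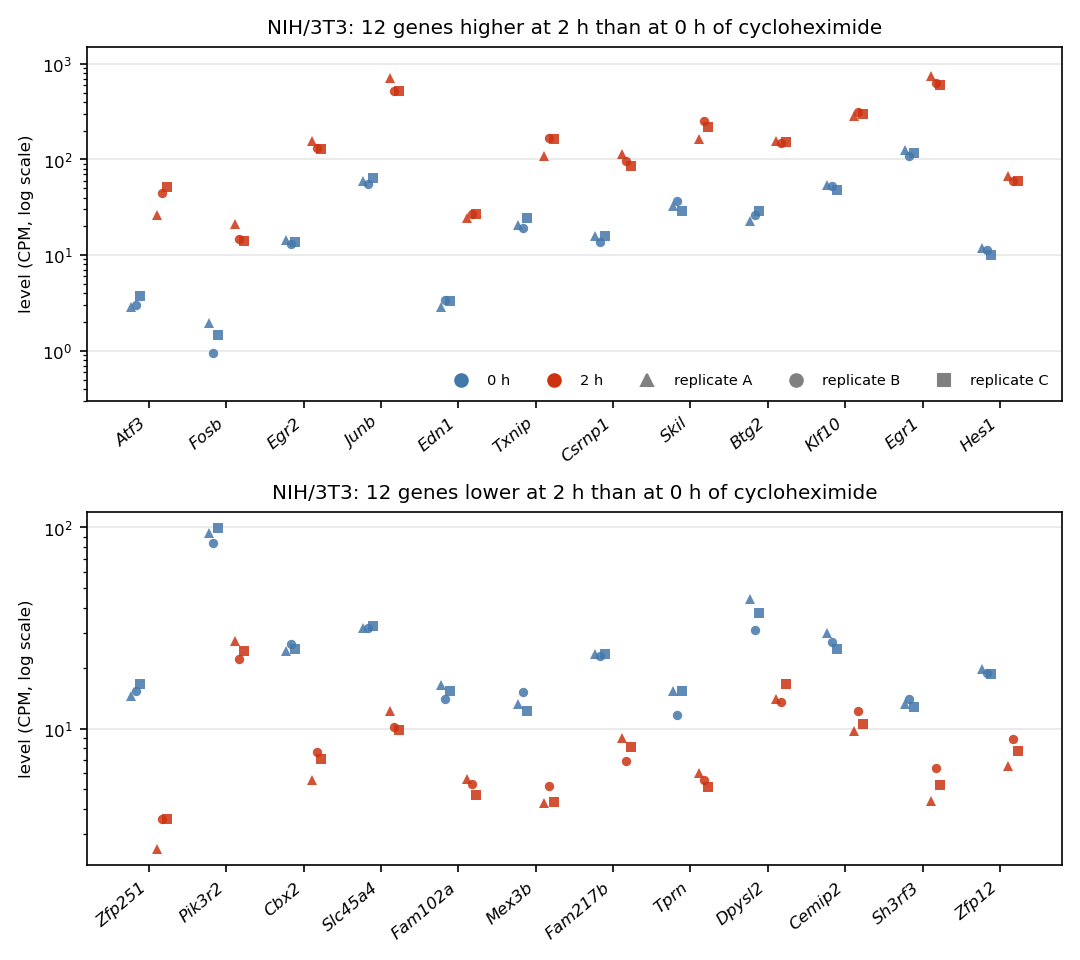
Level in each library, in CPM on a log axis, of the 12 genes with the largest rises and the 12 with the largest falls among called genes of at least 10 CPM; blue marks are 0 h, red marks 2 h, and shapes are replicates. The genes were chosen from those without overlap between the times, and Atf3, for example, lies at 2.86 to 3.71 CPM before and 26.5 to 51 CPM after treatment.

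Promoters of genes that rose are shown because known binding motifs of immediate-early regulators could be read in them. Each is the RefSeq sequence of mouse build GRCm38.p6 from 250 bases before to 50 after an annotated start, on the strand of the gene, in lower case with the motif in capitals. The Egr2 promoter (chr10:67537619-67537918, plus strand) has a CArG box, the site of serum response factor, at -72 to -63 from the start, and 1 of several annotated starts is shown for this gene and for Csrnp1. Of the 5 annotated windows of Egr2, 4 held a CArG box and 1 held no motif. The Csrnp1 promoter (chr9:119982974-119983273, minus strand) has AP-1 motifs at -102 to -96 and at -14 to -8, and the other 3 windows of Csrnp1 held none of the motifs searched. The promoters of Btg2 (chr1:134079106-134079405, minus strand) and of Dusp1 (chr17:26508423-26508722, minus strand), a MAP kinase phosphatase that also rose, have the cAMP response element (CRE) at -166 to -159 and at -143 to -136.
Egr2: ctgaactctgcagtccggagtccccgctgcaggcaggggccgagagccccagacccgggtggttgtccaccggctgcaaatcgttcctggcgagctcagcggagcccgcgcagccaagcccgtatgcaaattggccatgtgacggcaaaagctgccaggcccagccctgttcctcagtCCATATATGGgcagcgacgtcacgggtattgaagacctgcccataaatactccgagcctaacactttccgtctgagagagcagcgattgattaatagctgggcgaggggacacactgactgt
Csrnp1: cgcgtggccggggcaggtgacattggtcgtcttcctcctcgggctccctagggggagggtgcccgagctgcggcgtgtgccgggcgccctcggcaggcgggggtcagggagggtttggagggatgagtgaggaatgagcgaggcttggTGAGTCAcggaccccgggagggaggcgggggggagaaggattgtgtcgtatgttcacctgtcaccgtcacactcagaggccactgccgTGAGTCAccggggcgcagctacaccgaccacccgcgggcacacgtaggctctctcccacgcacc
Btg2: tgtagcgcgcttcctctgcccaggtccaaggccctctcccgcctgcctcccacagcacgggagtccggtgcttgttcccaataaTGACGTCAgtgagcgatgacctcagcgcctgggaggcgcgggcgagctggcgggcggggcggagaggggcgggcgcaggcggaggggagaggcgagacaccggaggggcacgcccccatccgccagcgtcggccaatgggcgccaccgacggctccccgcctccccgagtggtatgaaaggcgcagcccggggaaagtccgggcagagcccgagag
Dusp1: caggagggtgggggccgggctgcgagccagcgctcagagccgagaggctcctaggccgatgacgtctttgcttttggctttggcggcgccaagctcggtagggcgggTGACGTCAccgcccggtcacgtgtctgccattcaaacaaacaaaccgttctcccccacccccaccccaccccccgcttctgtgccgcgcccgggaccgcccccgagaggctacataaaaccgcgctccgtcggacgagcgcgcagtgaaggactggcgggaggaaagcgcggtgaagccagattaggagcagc
Of the 209 genes with 2-fold rises, 121 had a promoter in the table, 161 promoters in all. The AP-1 motif TGANTCA, searched on both strands, stood in 24 of these (14.9%), against 5.32% of the 12151 promoters of the genes tested and 5.48% of those of 2-fold lower genes. CArG boxes stood in 8 promoters (4.97%), against 1.36% of those of the genes tested. Of these 8, 4 were windows of Egr2, some of which overlap and hold the same site. By gene, 5 of 121 held a CArG box, against 155 of the 9547 genes tested that had a promoter. The CRE, TGACGTCA, was in 4.35% against 3.14%, and the EGR motif GCGTGGGCG in 0.621% against 1.22%. In promoters of the 2-fold lower genes the shares were 4.11% for the CRE, near that of the higher genes, 2.74% for EGR and 1.37% for CArG boxes. Among all 32851 promoters of the table the shares were 7.81% for AP-1, 1.63% for CArG boxes, 1.79% for the CRE and 0.612% for EGR. The windows of Atf3, Fosb, Fos, Junb, Jun, Edn1, Txnip, Klf6, Ccn1 and Ier5 held none of the 4 motifs. A match describes letters and is no evidence of binding.

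In the lists that follow, genes counted as rising or falling are called genes. Over all genes tested 16.1% rose and 18.9% fell, and the list counts are to be read beside these shares. AP-1 factors and EGR factors rose as groups. Of 10 AP-1 and small MAF genes tested, 9 rose and none fell, with a median log2 fold change of 1.38 beside -0.01 over all genes. Fos, the classical early gene, was low at 0 h with 0.494, 0.641 and 0.658 CPM and had 10.6, 8.05 and 8.87 CPM at 2 h (log2 fold change 3.91 ± 0.23 SE, adjusted p = 4.07e-09). Jun had 263, 253 and 284 CPM at 0 h and 1020, 831 and 843 CPM at 2 h (log2 fold change 1.75 ± 0.10 SE, adjusted p = 4.58e-09). Neither overlapped between the times, nor did the smaller rises of Fosl2 (0.92), Mafk (0.74), Maff (1.00) or Jund (0.51). Fosl1, with 40.4, 41.9 and 50 CPM at 0 h and 61.7, 48.9 and 50.2 CPM at 2 h, overlapped and was not called (adjusted p = 0.0677).

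Of 8 genes of EGR and NR4A factors and their NAB corepressors, 5 rose and none fell (median 1.24). Egr3 had 7.06, 5.34 and 4.6 CPM at 0 h and 32.2, 29.3 and 25.1 CPM at 2 h (log2 fold change 2.36 ± 0.27 SE, adjusted p = 1.71e-05). Nr4a1, an orphan nuclear receptor, had 27.7, 24.6 and 28.8 CPM at 0 h and 44.1, 52.4 and 55.7 CPM at 2 h (log2 fold change 0.91 ± 0.19 SE, adjusted p = 0.00256), again with no overlap. Nr4a3 rose from below 1 CPM to 1.96, 2.04 and 1.89 CPM, and Nr4a2, at 1.48, 1.07 and 1.74 CPM at 0 h and 1.64, 1.68 and 1.67 CPM at 2 h, was not called. The corepressors Nab1 and Nab2, which bind EGR proteins and limit them, had log2 fold changes of -0.04 and -0.02 and overlapping libraries.

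Targets of serum response factor and genes of its regulators did not move together. Among 13 IER genes and partners of serum response factor, 6 rose and 3 fell. The rises were Csrnp1, Ier2 (2.24), Ier3 (1.81), Ier5 (1.39), Ier5l (0.51) and Rhob (1.31), a small GTPase of short life. Ier2 had 60.1, 51.3 and 61.6 CPM at 0 h and 307, 249 and 263 CPM at 2 h. The coactivators Mrtfa and Mrtfb, which carry actin signals to serum response factor, fell, Mrtfa from 65.7, 55.5 and 68.4 CPM to 39.1, 36.3 and 32.8 CPM (log2 fold change -0.81 ± 0.14 SE, adjusted p = 0.000524). Srf itself had 80.3, 72.6 and 82.9 CPM at 0 h and 90.8, 60.9 and 65.6 CPM at 2 h, with overlapping groups (adjusted p = 0.475). The third fall was that of Elk3 (-0.22), an ETS partner of serum response factor.

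Of 12 Kruppel-like factors, 6 rose and 2 fell (median 0.36). Beside Klf10, Klf6 had 215, 230 and 206 CPM at 0 h and 679, 803 and 735 CPM at 2 h (log2 fold change 1.77 ± 0.09 SE, adjusted p = 7.81e-10). Klf2, Klf9, Klf4 and Klf5 rose by 0.90, 0.71, 0.56 and 0.40 on the log2 scale, and Klf13 and Klf16 changed by -0.57 and -0.47. The factors that rose separated the times without overlap.

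A list of ERK feedback inhibitors and other DUSP phosphatases mostly rose, with exceptions among the DUSP and Sprouty genes, and no Spred gene was called higher. Not every DUSP gene in it is specific to ERK. Of 16 tested, 10 rose and 2 fell (median 0.59). Errfi1, which encodes an inhibitor of the EGF receptor, had 79, 83.5 and 79.2 CPM at 0 h and 479, 421 and 408 CPM at 2 h (log2 fold change 2.44 ± 0.17 SE, adjusted p = 5.12e-08). Dusp1 had 29.6, 31.4 and 31.5 CPM at 0 h and 143, 110 and 111 CPM at 2 h (log2 fold change 1.98 ± 0.11 SE, adjusted p = 4.06e-09), and the ERK-specific phosphatase Dusp6 had 123, 132 and 122 CPM at 0 h and 410, 423 and 410 CPM at 2 h (log2 fold change 1.72 ± 0.09 SE, adjusted p = 1.25e-09). Dusp5, Dusp10 and Dusp16 also rose at least 2-fold (1.96, 1.01 and 1.04). Dusp7, a close relative of Dusp6, fell instead, from 66.7, 60 and 65.7 CPM to 28, 33.7 and 32.6 CPM (log2 fold change -1.03 ± 0.11 SE, adjusted p = 7.68e-06). Of the Sprouty genes Spry2 rose (1.06), Spry4 rose (0.64) and Spry1 (-0.04) was not called, and of the related Spred genes Spred2 fell (-0.51) and Spred1 (-0.23) and Spred3 (-0.16) were not called. Dusp1 overlaps other annotated genes on both strands, so its count may hold their reads.

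Among genes of mRNA decay factors, which act on many early transcripts, 5 of 9 tested rose and 1 fell (median 0.45). Zfp36, which encodes tristetraprolin, a protein that binds AU-rich elements and brings deadenylases, had 14.1, 12.9 and 14.5 CPM at 0 h and 45.7, 32.7 and 36.1 CPM at 2 h (log2 fold change 1.46 ± 0.15 SE, adjusted p = 4.93e-06). Its relative Zfp36l1 rose by 1.00, while Zfp36l2 (0.31, adjusted p = 0.0737) was not called although its libraries did not overlap. Btg1 had 148, 140 and 143 CPM at 0 h and 279, 298 and 304 CPM at 2 h (log2 fold change 1.03 ± 0.07 SE, adjusted p = 3e-08), and Btg3 rose by 0.45. Zc3h12a, the endonuclease Regnase-1, had 8.5, 7.6 and 7.69 CPM at 0 h and 6.76, 11 and 12 CPM at 2 h, with replicate A below 0 h and the others above it, and was not called. The fall was that of Tob2 (-0.37).

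Secreted and surface proteins of the serum response made up the largest of the early-gene lists. Of 29 tested, 23 rose and none fell, with a median of 1.17. Ccn1, a matricellular protein and target of serum response factor and YAP, had 176, 160 and 198 CPM at 0 h and 1035, 822 and 844 CPM at 2 h (log2 fold change 2.34 ± 0.18 SE, adjusted p = 1.38e-07). Its relative Ccn2 had 79.8, 68.7 and 81.4 CPM at 0 h and 413, 336 and 346 CPM at 2 h (log2 fold change 2.25 ± 0.18 SE, adjusted p = 1.96e-07). Hbegf, a membrane-anchored ligand of the EGF receptor, had 54.1, 52.4 and 50.2 CPM at 0 h and 231, 187 and 198 CPM at 2 h (log2 fold change 1.98 ± 0.11 SE, adjusted p = 1.87e-09). Each was separated without overlap. Ptgs2, the inducible cyclooxygenase, had 559, 617 and 471 CPM at 0 h and 1291, 1921 and 1650 CPM at 2 h (log2 fold change 1.56 ± 0.21 SE, adjusted p = 8.8e-05). In this gene replicate A was the lowest library at 2 h and still above 0 h.

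Replicate A differed from the others in this list. The median difference from the 0 h mean was 0.55 in replicate A, 1.27 in B and 1.21 in C. Il6, a cytokine of very low level here, had 0.0988, 0.171 and 0.132 CPM at 0 h and 0.6, 1.28 and 1.29 CPM at 2 h, all above 0 h. Il11, a related cytokine, had 4.79, 5.64 and 4.54 CPM at 0 h and 6.22, 15.1 and 13.8 CPM at 2 h, and Ereg, a ligand of the EGF receptor, had 55.1, 59.7 and 52.1 CPM at 0 h and 89.1, 176 and 171 CPM at 2 h. Cxcl5 at 2 h gave 1.15, 6.76 and 7.2 CPM around 3.36, 2.99 and 3.39 CPM at 0 h and was not called. Without replicate A, 31 members passed the filter on low counts, 25 rose and 1 fell (median 1.26). The growth factors Bdnf (1.05), Lif (1.22), Inhba (1.17) and Vegfa (0.65) rose, with the 3 libraries at 2 h above those at 0 h for each.

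NF-kB factors and their inhibitors showed little change as a list. Of 16 tested, 3 rose and 2 fell (median 0.05), beside 16.1% and 18.9% over all genes tested. Without replicate A 6 rose and 3 fell. Tnfaip3, the deubiquitinase A20 that ends NF-kB signalling, had 1.53, 2.48 and 2.43 CPM at 0 h and 9.98, 11.6 and 11.1 CPM at 2 h (log2 fold change 2.33 ± 0.25 SE, adjusted p = 9.13e-06). Nfkbia, which encodes the main IkB, was at 19.1, 19.3 and 20.4 CPM and then at 23.5, 24.8 and 24.3 CPM (log2 fold change 0.30 ± 0.09 SE, adjusted p = 0.0153). Nfkbiz, called without replicate A (log2 fold change 1.30, adjusted p = 0.00489), was not called with it (adjusted p = 0.15). Nfkb1, the precursor of the p50 subunit, fell (-0.39).

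Myc, an early gene with an unstable mRNA, had 264, 244 and 284 CPM at 0 h and 589, 500 and 539 CPM at 2 h (log2 fold change 1.04 ± 0.10 SE, adjusted p = 1.61e-06). Its dimer partner Max was not called (-0.08), while Mnt, an antagonist of MYC (-0.73), and Mlxip, a partner of Mlx (-0.60), fell. Of the 10 network genes tested 2 rose and 2 fell, the other rise being that of Mlx (0.60). The shares over all genes tested were 16.1% and 18.9%.

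Feedback genes of BMP and TGF-beta signalling rose in 9 of 13 cases, with 2 falls (median 0.70). The inhibitors of helix-loop-helix factors Id1, Id2 and Id3 rose by 1.07, 1.54 and 1.29, Id3 from 106, 103 and 110 CPM to 227, 271 and 285 CPM. The inhibitory Smad7 had 61.4, 55 and 62.9 CPM at 0 h and 93.5, 127 and 121 CPM at 2 h (log2 fold change 0.93 ± 0.16 SE, adjusted p = 0.000525), while Smad6 (0.04) was not called. Ski, the relative of Skil, fell (-0.46), so the 2 corepressors moved in opposite directions. Of 13 SOCS and gp130 genes, 6 rose and 3 fell. Socs3 had 43.3, 45.5 and 49 CPM at 0 h and 87.3, 81.2 and 84.6 CPM at 2 h (log2 fold change 0.88 ± 0.09 SE, adjusted p = 3.97e-06). Socs1, another inhibitor of JAK kinases, went the other way, with 20.3, 17.5 and 22.3 CPM at 0 h and 14.1, 11 and 12.2 CPM at 2 h (log2 fold change -0.70 ± 0.12 SE, adjusted p = 0.000596). Stat3, a factor of the same pathway, fell (-0.42).

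Of 7 Notch genes 2 rose and 3 fell. The ligand Jag1 rose from 36.8, 40.4 and 34.1 CPM to 73.2, 68.6 and 62.8 CPM (0.88). Jag2, another ligand, was called lower, but with at most 3 counts in a 2 h library it is given no fold. The receptors Notch1 (-0.87) and Notch2 (-0.50) fell, and the target Hes1 rose. Of 15 YAP and TEAD genes 4 rose and 4 fell, beside 16.1% and 18.9% over all genes tested. The targets Ccn1, Ccn2, Ankrd1 (1.99) and Amotl2 (0.89) rose, the factors Tead1 (-0.55) and Tead4 (-0.42) fell, and Yap1 was not called (-0.07).

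Of 17 clock genes 5 rose and 2 fell, beside 16.1% and 18.9% over all genes tested. Their median was 0.01, with 9 higher and 8 lower in size, called or not, and Tef was among the falls. The rises were in genes of repressors of the clock loop. They were Nfil3 with 8.64, 8.16 and 9.8 CPM at 0 h and 47.7, 37.6 and 40.3 CPM at 2 h (log2 fold change 2.23 ± 0.11 SE, adjusted p = 1.04e-09), Bhlhe40 with 19.7, 17.9 and 18.6 CPM at 0 h and 52.3, 55.8 and 59.7 CPM at 2 h (log2 fold change 1.58 ± 0.10 SE, adjusted p = 1.33e-08), and Nr1d1 (1.26), Nr1d2 (0.76) and Per1 (0.67). The activators Clock (-0.05) and Arntl (0.23) were not called. Alpha-arrestins also divided. Arrdc3 had 24.4, 27.8 and 22.8 CPM at 0 h and 82.1, 127 and 115 CPM at 2 h (log2 fold change 2.12 ± 0.13 SE, adjusted p = 7.48e-09) and Arrdc4 rose by 0.67, while Arrdc2 fell (-0.42). Mcl1, an antiapoptotic BCL2 protein of short life, had 166, 168 and 163 CPM at 0 h and 266, 256 and 268 CPM at 2 h (log2 fold change 0.67 ± 0.07 SE, adjusted p = 3.96e-06) and was the only riser of the 12 BCL2 family genes. The proapoptotic Bbc3 fell (-0.55).

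The leading falls were smaller than the leading rises and concerned genes of other kinds. Pik3r2, which encodes the p85-beta regulatory subunit of PI3 kinase, had 93.8, 84.2 and 99.7 CPM at 0 h and 27.2, 22.3 and 24.4 CPM at 2 h (log2 fold change -1.91 ± 0.09 SE, adjusted p = 7.81e-10). Zfp251, a KRAB zinc-finger gene, had 14.6, 15.3 and 16.6 CPM at 0 h and 2.51, 3.56 and 3.56 CPM at 2 h (log2 fold change -2.26 ± 0.13 SE, adjusted p = 3.08e-09). Cbx2, a Polycomb chromobox protein, had 24.2, 26.2 and 24.8 CPM at 0 h and 5.56, 7.61 and 7.03 CPM at 2 h (log2 fold change -1.89 ± 0.11 SE, adjusted p = 5.1e-09). Mex3b, an RNA-binding protein with KH domains, had 13.2, 15.2 and 12.2 CPM at 0 h and 4.25, 5.2 and 4.33 CPM at 2 h (log2 fold change -1.55 ± 0.13 SE, adjusted p = 5.57e-07). Dpysl2, a tubulin-binding protein of axon growth, had 43.9, 30.8 and 37.6 CPM at 0 h and 14, 13.5 and 16.7 CPM at 2 h (log2 fold change -1.34 ± 0.13 SE, adjusted p = 3.18e-06), and Slc45a4, a solute carrier, had 31.6, 31.6 and 32.3 CPM at 0 h and 12.2, 10.2 and 9.85 CPM at 2 h (log2 fold change -1.57 ± 0.11 SE, adjusted p = 3e-08).

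The other leading falls were Fam102a (-1.56), Fam217b (-1.54), Tprn (-1.35), Cemip2 (-1.32), a hyaluronidase of the cell surface, Sh3rf3 (-1.32), a RING-finger ubiquitin ligase, and the zinc-finger gene Zfp12 (-1.30). Fam217b, for example, had 23.4, 22.9 and 23.4 CPM at 0 h and 9, 6.89 and 8.14 CPM at 2 h. The 12 falls were chosen from called genes without overlap between the times, as the rises were. All 12 kept direction and call under every alternative, which this choice favours. Pik3r2 and Cemip2 overlap a gene on the opposite strand and Sh3rf3 a gene on its own.

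The other PI3 kinase and insulin receptor substrate genes were mixed. Of 10 tested, Pik3r2 included, 2 rose and 4 fell (median -0.22). The catalytic subunits Pik3ca (-0.40) and Pik3cd (-0.66) and the AKT phosphatase Phlpp1 (-0.42) fell. The regulatory subunit Pik3r1 had 57.1, 63 and 48.8 CPM at 0 h and 58, 63.9 and 57.8 CPM at 2 h, with overlapping groups, and Pik3r3 rose (0.59), as did Irs2 (0.61). Of the 3 regulatory subunit genes, 1 fell, 1 rose and 1 was not called.

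Genes of the fibroblast matrix were lower. Of 22 tested, 12 fell and 1, Timp1, rose (0.29), with a median of -0.38. That median was -0.20 with GC and length trends removed, -0.23 when the 2 h replicate C was left out and -0.25 when the 0 h replicate A was. Col1a1, a chain of type I collagen, had 3224, 2727 and 3272 CPM at 0 h and 2276, 1608 and 1664 CPM at 2 h (log2 fold change -0.73 ± 0.16 SE, adjusted p = 0.00238), and Col1a2, the other chain, had 2709, 2698 and 2871 CPM at 0 h and 2166, 1635 and 1739 CPM at 2 h (log2 fold change -0.58 ± 0.13 SE, adjusted p = 0.00277). Col3a1 had 397, 468 and 440 CPM at 0 h and 316, 244 and 280 CPM at 2 h (log2 fold change -0.64 ± 0.13 SE, adjusted p = 0.00187). Replicate A was the highest library at 2 h in these 3 genes and still below 0 h. Col5a1 (-0.68), Col5a2 (-0.60), Mmp14 (-0.59) and Mmp2 (-0.50) also fell. Fn1 (-0.26), Sparc (-0.13) and Lox (-0.15) were not called. Fibroblast marker genes overlap this list, and their summed level is given above. Of 12 genes of the actin cytoskeleton and targets of serum response factor only Tln1, which encodes talin, was called, lower (-0.59). Without replicate A 5 of the 12 fell. Actb had 7485, 6736 and 7866 CPM at 0 h and 8683, 5523 and 5708 CPM at 2 h, with replicate A above 0 h and the others below it.

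Cell cycle genes moved by small amounts, and their counts stand beside 16.1% higher and 18.9% lower over all genes tested. Of 34 S phase genes, 10 rose and 2 fell (median 0.10), among the rises Tyms (0.49), Orc6 (0.58) and Pcna (0.30), the sliding clamp of replication. Of 29 G2 and mitotic genes 5 rose and 9 fell (median -0.08), against 4 and 4 when the 2 h replicate C was left out and 1 and 7 when the 0 h replicate A was. Cenpa and Birc5 led the called rises among members of at least 5 CPM. Ccnb1 (0.38) and Cdk1 (0.30), which form the mitotic kinase, also rose, whereas Mki67 (-0.73), Cenpe (-0.77) and Cenpf (-0.61) fell. In G1, Cdk6 had 211, 187 and 187 CPM at 0 h and 99.5, 118 and 111 CPM at 2 h (log2 fold change -0.84 ± 0.16 SE, adjusted p = 0.00115). Cyclin D1, Ccnd1, was not called (-0.05), and Ccne2 rose (0.61).

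Stress programmes did not move as blocks, and their counts stand beside 16.1% higher and 18.9% lower over all genes tested. Of 28 ATF4 genes, 4 rose and 8 fell (median -0.13), and without replicate A 4 rose and 12 fell (median -0.27). Atf4 itself had 407, 417 and 448 CPM at 0 h and 525, 683 and 725 CPM at 2 h (log2 fold change 0.60 ± 0.10 SE, adjusted p = 0.000579). Its target Chac1, which degrades glutathione, had 7.8, 7.73 and 7.99 CPM at 0 h and 4.09, 2.64 and 2.83 CPM at 2 h (log2 fold change -1.32 ± 0.17 SE, adjusted p = 3.9e-05), and Sesn2, a leucine sensor shared with p53, had 60.6, 57.2 and 58.5 CPM at 0 h and 31.3, 23.9 and 27.7 CPM at 2 h (log2 fold change -1.09 ± 0.12 SE, adjusted p = 6.05e-06). The amino acid carriers Slc7a5 (-0.50) and Slc7a1 (-0.48) fell and Asns (-0.11) and Ddit3 (-0.06) were not called. Of 19 ER stress genes none rose and 6 fell, Syvn1 furthest (-0.64), and the chaperone Hspa5 was not called (0.16). Among 14 HSF1 targets, 2 rose and 5 fell. The inducible Hsp70 gene Hspa1b had 5.88, 5.98 and 7.69 CPM at 0 h and 1.91, 1.44 and 1.46 CPM at 2 h (log2 fold change -2.05 ± 0.18 SE, adjusted p = 8.16e-07). The constitutive Hspa8 also fell (-0.44), and Dnajb1, a cochaperone of the same response, was not called (-0.05).

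Of 18 p53 targets, 6 rose and 6 fell, against 2 and 5 when the 0 h replicate A was left out and 2 and 4 when the 2 h replicate C was. Btg2 and Plk2 (1.51) led the rises. Mdm2, the p53 ligase, had 192, 209 and 190 CPM at 0 h and 212, 253 and 253 CPM at 2 h (log2 fold change 0.28 ± 0.08 SE, adjusted p = 0.0141), while Cdkn1a, the CDK inhibitor p21, had overlapping groups (0.15) and Zmat3 fell (-0.82). Of 24 sterol genes 1 rose and 4 fell. Among these falls was Srebf2 (-0.39), the factor that drives the pathway.

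Genes of the translation and energy machinery were higher by modest amounts across large lists. Of 82 cytosolic ribosomal protein genes 51 rose and none fell (median 0.45). Rps14 had 647, 658 and 727 CPM at 0 h and 1146, 1082 and 1248 CPM at 2 h (log2 fold change 0.77 ± 0.19 SE, adjusted p = 0.00656), and these genes share reads with their many pseudogenes, so single values are uncertain. Of 78 mitochondrial ribosomal protein genes 49 rose and none fell (median 0.38), for example Mrpl41 with 46.5, 48.9 and 50.3 CPM at 0 h and 72.6, 73.3 and 81.2 CPM at 2 h (log2 fold change 0.64 ± 0.14 SE, adjusted p = 0.00236). Of 77 nuclear genes of the respiratory chain 32 rose and 1 fell (median 0.35), among them Uqcrh (0.63) and Ndufb8 (0.63). Of 32 proteasome subunits 18 rose and 1, Psmd3, fell (-0.25), with a median of 0.35. Psma6, a subunit of the core ring, had 236, 239 and 256 CPM at 0 h and 340, 395 and 394 CPM at 2 h (log2 fold change 0.62 ± 0.14 SE, adjusted p = 0.00302).

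The direction of these 4 lists was the same in each library, and the number of calls was not. The medians against 0 h for cytosolic ribosomal proteins were 0.44, 0.41 and 0.50 in replicates A, B and C. With 1 library left out at a time the called rises ranged from 20 to 43 for cytosolic ribosomal proteins, 19 to 45 for mitochondrial ones, 9 to 35 for the respiratory chain and 8 to 15 for the proteasome. With trends on GC content and transcript length removed, they were 42, 40, 11 and 12, with medians of 0.29, 0.26, 0.14 and 0.16.

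Of 16 genes of SR splicing factors and their kinases 8 rose and none fell (median 0.23), with medians of 0.08, 0.34 and 0.37 in replicates A, B and C. Without replicate A 10 rose and 1 fell (median 0.37). Among the rises were Srsf7 with 225, 238 and 232 CPM at 0 h and 373, 455 and 461 CPM at 2 h (log2 fold change 0.89 ± 0.11 SE, adjusted p = 2.83e-05) and Srsf3 (0.75). Clk1, a kinase of SR proteins, gave 29.7, 92.7 and 91.4 CPM at 2 h around 53.4, 60.8 and 50.9 CPM at 0 h and was not called. Clk1 was thus below 0 h in replicate A and above it in B and C, and host genes of small nucleolar RNAs were split likewise. With all libraries 1 of 11 rose, Snhg1 (1.13), and 1 fell, Snhg5 (-0.86). Without replicate A 6 rose and none fell, and the list's median went from 0.22 to 0.63. The medians in the single libraries were -1.10, 0.57 and 0.66. Zfas1 was then called (log2 fold change 1.54, adjusted p = 0.00488), and Snhg15 too (0.86, adjusted p = 0.0295).

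Of the 306 zinc-finger Zfp genes tested 55 rose and 57 fell (median -0.05), beside 16.1% higher and 18.9% lower over all genes. These counts were 84 and 61 without the 2 h replicate A, 31 and 61 without replicate B at that time, 32 and 46 or 31 and 48 when replicate A or C of 0 h was left out, and 38 and 63 with library size as the only scaling. The medians in the single libraries were -0.28, 0.11 and -0.03. Of 34 genes of ribosome biogenesis 7 rose and 6 fell, beside the same 16.1% and 18.9%. Nip7 rose (0.85) and the nucleolar protein gene Ncl fell (-0.38). Of 67 replication-dependent histone genes 13 were tested, of which 4 rose and none fell (median 0.78). Without the 0 h replicate A 2 rose, and only 1 member passed a filter at 5 CPM. Hist1h1c, a linker histone gene, had 2.42, 1.58 and 2.56 CPM at 0 h and 6.82, 12.4 and 11.8 CPM at 2 h (log2 fold change 2.24 ± 0.24 SE, adjusted p = 5.69e-06). Of 10 tubulin genes 2 rose, Tuba1a (0.48) and Tuba1c (0.30), and without replicate A none rose and 2 fell. Of 9 mitochondrially encoded genes none rose and 2 fell, mt-Nd4 (-0.65) and mt-Nd6 (-0.63).

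**Figure D3:**
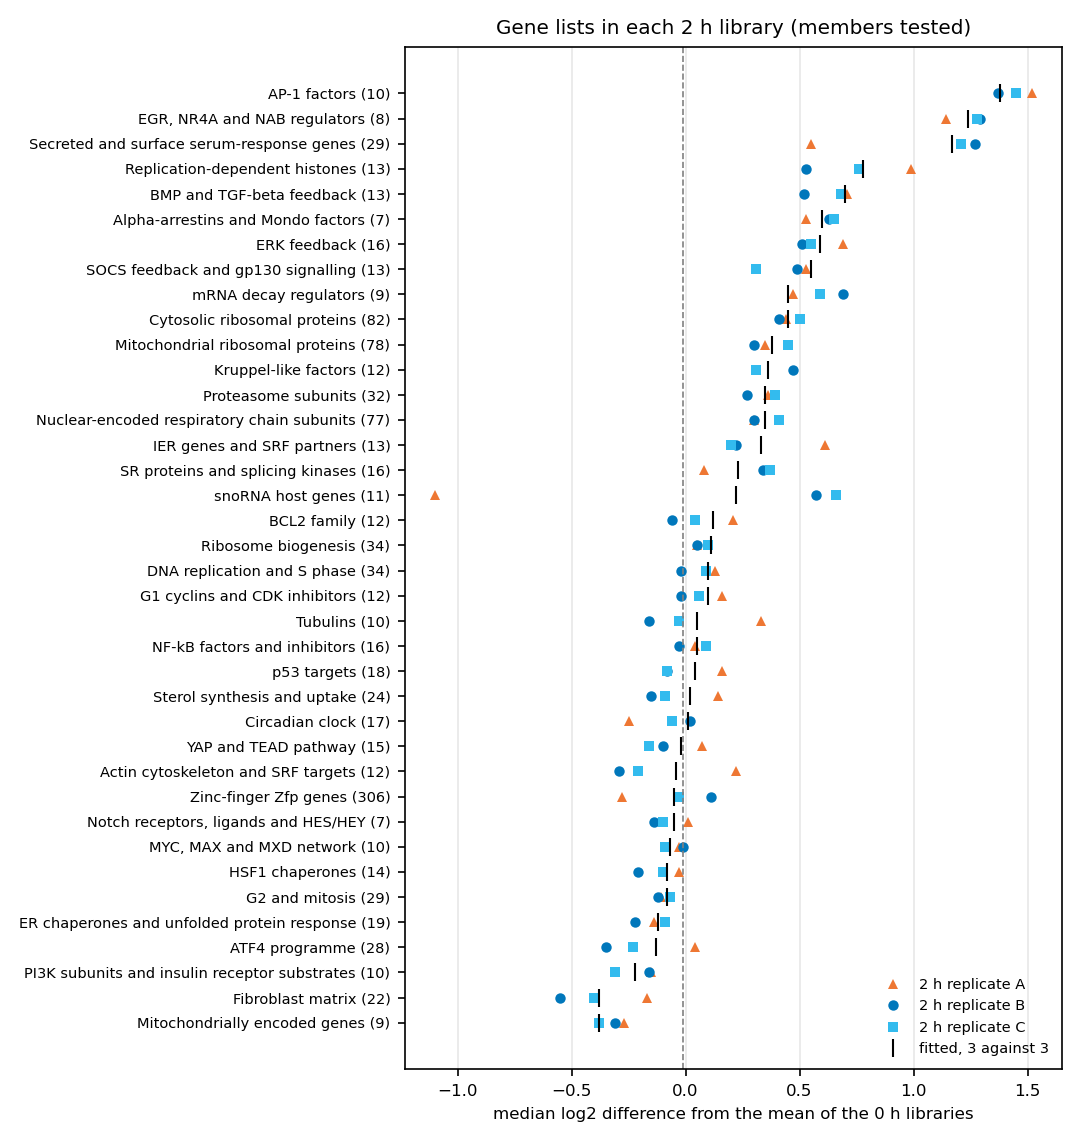
Median log2 difference from the 0 h mean for each gene list in the single 2 h libraries (coloured marks) and in the fit of all 3 against 3 (black bars); the dashed line is the median over all genes, -0.01, and numbers in brackets are members tested. The AP-1 and EGR lists lie farthest to the right in all 3 libraries, from 1.14 to 1.52, and the snoRNA host genes are at -1.10 in replicate A against 0.57 and 0.66 in B and C.

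Several of the smaller calls named above were lost in at least 1 alternative. Leaving out 1 library ended the calls of Jund, Btg3, Klf16, Mrtfb, Elk3, Tob2, Nfkbia, Ski, Notch1, Notch2, Tead1, Per1, Arrdc2, Pik3ca, Phlpp1, Timp1, Cdk1, Pcna, Mdm2, Slc7a1, Hspa8, Srebf2, Psmd3, Snhg1, Snhg5, Tuba1a, Tuba1c, mt-Nd4 and mt-Nd6. For Snhg5, Tuba1a, Tuba1c and mt-Nd6 the 2 h replicate A was among those libraries. With trends on GC content and length removed, the calls of Klf13, Stat3, Tln1 and Ncl were lost too. Without the 2 h replicate A, calls were gained for genes above whose values in that library lay apart, among them Clk1 (log2 fold change 0.76, adjusted p = 0.000173), Cxcl5 (1.12, adjusted p = 0.00605), Zc3h12a (0.56, adjusted p = 0.0381), Actb (-0.37, adjusted p = 0.00431), Srf (-0.30, adjusted p = 0.0214), Hspa5 (0.26, adjusted p = 0.0214) and Arntl (0.39, adjusted p = 0.00783).

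Counts in several smaller lists also moved by more than 1.5 times when another library was left out. Without the 2 h replicate C there were 6 rises and 1 fall among S phase genes, 4 and 5 among ATF4 genes, 1 and 2 among HSF1 targets, 3 and 4 among genes of ribosome biogenesis, and 5 and 0 among SR genes. In the same setting none of the Notch genes and none of the BMP and TGF-beta genes fell, and 1 sterol gene did. Without the 0 h replicate A, 2 HSF1 targets rose and 2 fell, 2 of the PI3 kinase genes rose and 2 fell, and 3 genes of ribosome biogenesis rose and 4 fell. Without the 2 h replicate B, 3 p53 targets rose and 4 fell.

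The time points on either side of 2 h were compared to place these levels. The comparisons share libraries with that of 2 h against 0 h, so their values are set side by side only. From 1 h to 2 h 2419 genes (17.4%) were called, 847 higher (6.08%) and 1572 lower (11.3%). The count rested on single libraries and was 511 without the 2 h replicate C, 1060 without replicate B and 3785 without replicate A at that time. With a 1 h library left out it was 555, 655 or 6295 for replicates A, B and C in that order. The 1 h replicate C stood apart from its replicates too. Its TMM factor was 0.935 against 1.006 in A and 0.998 in B, with counts for 19551 genes against 21467 and 20911. The 1 h means and the list counts from 1 h to 2 h given below include that library. Fitted on the 6 libraries of 1 h and 2 h alone, the count of called genes was 60, with 35 higher and 25 lower at 2 h. From 2 h to 5 h 3220 (23.1%) were called, 1479 higher (10.6%) and 1741 lower (12.5%), or 2064 in all without the 5 h replicate B. Of the 209 genes 2-fold higher at 2 h, 122 were also higher at 2 h than at 1 h and none lower, and 86 fell from 2 h to 5 h while 9 rose. Of the 209 lower genes, 119 were also lower at 2 h than at 1 h, and 64 rose again by 5 h while 14 fell further. Both sets were chosen by their values in the same 2 h libraries. For the higher genes this favours a rise from 1 h and a fall to 5 h, and for the lower genes the reverse.

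The early genes did not share a single time course. Egr1 stood at 582 ± 182 CPM (SD, n = 3) at 1 h and changed by 0.19 from 1 h to 2 h (adjusted p = 0.432), whereas Atf3 (2.09), Junb (1.87), Skil (1.87) and Fosb (1.84) had the largest rises in that hour. By 5 h Egr1 was at 5.91 ± 0.667 CPM, below its level at 0 h, a log2 change of -6.81 from 2 h (adjusted p = 4.97e-12). Egr3 (-4.62), Junb (-4.49) and Egr2 (-4.47) followed in size. Txnip went the other way and rose again, to 208 ± 6.54 CPM (0.50, adjusted p = 0.0243). Klf10 at 5 h, 138 ± 5.64 CPM, was near its 1 h level of 139 ± 30.3 CPM.

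Over all genes tested 6.08% rose and 11.3% fell from 1 h to 2 h, and 10.6% rose and 12.5% fell from 2 h to 5 h. The list counts here are to be read beside these shares and were not repeated with single libraries left out. As a list, AP-1 genes gave 8 rises and no fall from 1 h to 2 h and then 10 falls of 10 from 2 h to 5 h. Of the 16 genes of the ERK feedback and DUSP list 8 rose and 2 fell, then 2 rose and 12 fell. Of the 29 secreted genes 20 rose and none fell, then 3 rose and 12 fell. Sterol genes were little changed up to 2 h, with 2 falls from 1 h, and 20 of 24 fell from 2 h to 5 h. The Zfp genes gave 13 rises and 58 falls from 1 h to 2 h and then 144 rises and 17 falls. Their medians against 0 h were -0.28, 0.11 and -0.03 in the 2 h replicates A, B and C. Ribosomal protein genes rose in 22 of 82 cases from 1 h to 2 h, and from 2 h to 5 h 1 rose and 1 fell.

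Among the falls, Pik3r2 went from 49.1 ± 1.44 CPM at 1 h to 18.1 ± 0.31 CPM at 5 h and was called lower in each step (adjusted p = 5.68e-06 and 0.00303). Cbx2 had the largest fall from 1 h to 2 h (-1.71, adjusted p = 2.97e-07) and rose again to 18.2 ± 1.32 CPM at 5 h. Hspa2 (-1.26), a testis-enriched Hsp70 gene, Ahdc1 (-1.24) and Mex3b (-1.22) were next in size in that hour. The largest rises from 2 h to 5 h were those of the noncoding RNA Neat1 (2.09), Zbtb26 (1.92), Runx1t1 (1.80) and Fgf2 (1.78). At 2 h Neat1 had 4.14, 17.6 and 12.4 CPM in replicates A, B and C, so replicate A was low here too.

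**Figure D4:**
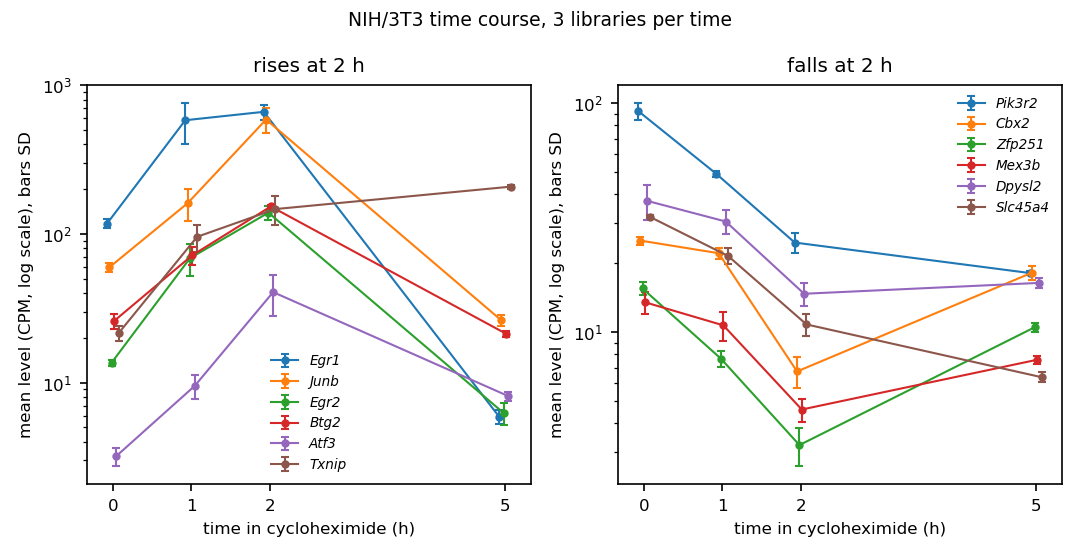
Mean level in CPM (log axis) with SD over 3 libraries at 0, 1, 2 and 5 h for 6 genes that rose and 6 that fell at 2 h. Egr1 is near its highest level by 1 h while Junb, Egr2 and Atf3 are highest at 2 h, and Txnip is highest at 5 h.

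Length and exon number are given for the genes of 2-fold size and for all called genes. The median annotated transcript was 2346 bases with 3 exons in genes at least 2-fold higher, and 42.9% of them had 1 or 2 exons. In genes at least 2-fold lower it was 3299 bases with 4 exons, and 34.5% had 1 or 2. Over all genes tested the values were 3070 bases, 6 exons and 22.8%. Among all called genes the median was 2400 bases with 4 exons in those higher, of which 25.5% had 1 or 2 exons, and 4365 bases with 12 exons in those lower, of which 10.4% did. Split into 4 equal groups by transcript length, from the shortest to the longest, genes had median log2 fold changes of 0.26, 0.05, -0.08 and -0.24. The same order held in each 2 h library, replicate A included. By GC content the medians were 0.14, 0.03, -0.04 and -0.19 from the lowest to the highest. Replicate A did not show that order, with -0.03, -0.01, 0.03 and -0.04, and replicate B showed it most, from 0.25 to -0.31. Between 0 h libraries the GC groups ranged from -0.09 to 0.10.

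**Figure D5:**
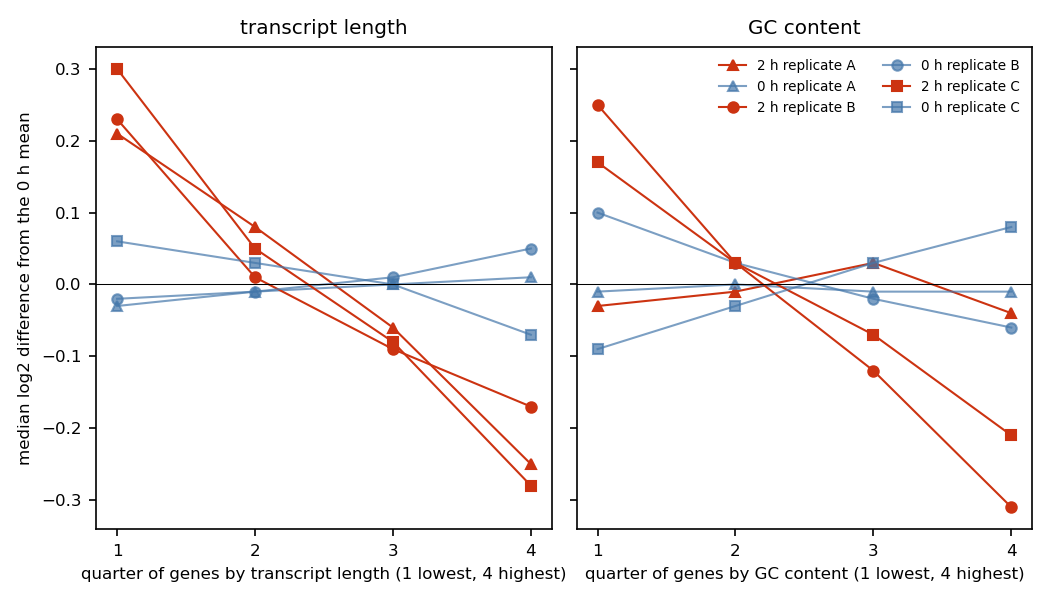
Median log2 difference from the 0 h mean in 4 equal groups of genes ordered by transcript length (left) and GC content (right), for each 2 h library (red) and each 0 h library (blue). The length trend from 0.21 to 0.30 in the shortest group down to between -0.17 and -0.28 in the longest appears in all 3 libraries at 2 h, and the GC trend is absent from replicate A.

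AU-rich elements, which mark many early-gene transcripts for rapid decay, were counted as the heptamer TATTTAT in annotated 3' untranslated ends. It stood in 75 of 138 genes at least 2-fold higher that had such an end (54.3%), against 30.8% of the 11399 of all genes tested and 29.6% of the 152 at least 2-fold lower. Per kilobase there were 0.730 heptamers in the 2-fold higher genes, 0.281 in all and 0.244 in the 2-fold lower. The median length of the end was 1208 bases in the 2-fold higher genes and 1225 in all. In the wider sets of called genes the share was 31.7% for those higher and 31.2% for those lower. Of the 12 leading rises 7 held it, Atf3, Btg2, Csrnp1, Edn1, Fosb, Klf10 and Skil, and of the 12 leading falls Fam217b and Zfp251 did.

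CGR8 at the same times served to show where the response of NIH/3T3 differed. The labels give this line the same drug and dose in another medium, so line and medium cannot be told apart. Of 17549 genes tested for a different change at 2 h, 355 were called (2.02%), 152 with a more positive change in CGR8 (0.866%) and 203 with a more negative one (1.16%). That split was 106 to 227 with RLE in place of TMM scaling. Without the CGR8 2 h replicate A it was 127 to 304, with 431 called, and the median difference over all genes went from 0.07 to -0.03. That library had counts for 22384 genes, against 24767 and 24502 in replicates B and C. Junb changed by -0.27 in CGR8 on the log2 scale against 3.27 in NIH/3T3 in the joint fit (difference -3.54 ± 0.21 SE, adjusted p = 8.59e-12). Btg2 (-0.46) and Hes1 (-0.33) also did not share their rise with CGR8 (adjusted p of the difference 8.08e-13 and 1.61e-08). Egr1 had a larger rise in CGR8, of 4.38, from a maximum of 1.19 CPM at 0 h to at least 19.2 CPM (adjusted p = 4.38e-05). For Txnip, which rose by 2.11 in CGR8, and Pik3r2, with -1.65, the differences of -0.64 and 0.30 did not pass the test (adjusted p = 0.134 and 0.478).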

How the data were processed

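Values were the read counts per gene that the authors deposited. Per the submitters' processing notes STAR, DESeq2 and build GRCm39 were used. The counting tool, and whether it used strand, are not given in the sources used here, while the library kit is stranded per the labels' protocols. Of 57186 gene identifiers 90.7% were paired with a symbol. Genes with at least 10 counts in enough libraries and 15 in all were kept (filterByExpr), 13941 of them. edgeR 4.0.16 in R 4.3.3 fitted its quasi-likelihood model with TMM factors and time as a factor to all 15 NIH/3T3 libraries, so that the 5 times shared an estimate of the spread. The line difference was fitted to all 30. Genes were called at a Benjamini-Hochberg adjusted p under 0.05 over all genes tested. SE is the size of the log2 fold change divided by the square root of the F statistic. limma 3.58.1 (voom with sample weights) and DESeq2 1.42.0 were alternatives, with other scaling, filters, single libraries left out, a replicate block, and GC and length trends removed. The fit was also run on simulated counts with known changes. Those held no deviating library and no GC or length trend, so they do not test the fit for these.

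The 12 largest rises and falls were named among called genes of at least 10 CPM without overlap of libraries, passing over predicted genes and pseudogenes. Of each list the 3 largest called rises and falls of at least 5 CPM could be named, and members whose role is described. The same rule gave the 4 largest per direction in the other comparisons. Values of a few genes are not reported here. The comparison, the lists and these rules were chosen with earlier results of these data known. With 3 libraries against 3, an exact permutation test of a single gene cannot go below p = 0.1, and none was used. Depth, 19600461 to 30503109 counts per library, limits precision at low levels.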

Additional observations from a re-analysis of the deposited data

Results flagged for a closer look

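The change at 2 h differed between CGR8 and NIH/3T3 in 355 genes by edgeR's quasi-likelihood test of the difference itself, and the values here are the change in CGR8 minus that in NIH/3T3 on the log2 scale. Of the 12 leading rises 10 were called, 9 of them less positive in CGR8. These genes were chosen for their rises in NIH/3T3, the side that is subtracted, which favours a negative sign. The differences were -4.24 for Fosb, -3.54 for Junb, -3.39 for Atf3, -2.98 for Btg2, -2.79 for Hes1, -2.58 for Edn1, -2.57 for Skil, -2.23 for Csrnp1 and -1.71 for Klf10, while Egr1 differed by 1.92 in the other direction. For Egr2 the difference of -1.29 did not pass (adjusted p = 0.833), with at most 5 counts in a CGR8 library. Fosb was also near its floor in CGR8, with at most 10 counts in a library.

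Of the 12 leading falls 5 were called, all with a less negative change in CGR8. They were chosen for their falls in NIH/3T3, which favours a positive sign. The differences were 1.42 for Cbx2, 1.01 for Dpysl2, 0.95 for Zfp251, 0.87 for Zfp12 and 0.71 for Fam102a. Slc45a4 changed by -1.59 in CGR8 and -1.60 in NIH/3T3 (adjusted p of the difference = 1). Outside these genes, Adgra2 had a difference of 2.04, with 1.34 in CGR8 and -0.70 in NIH/3T3. Rac3 had 2.02 and lost its call in 9 alternatives. Zscan18 had a fitted difference of 4.88, but NIH/3T3 libraries held at most 4 counts at 0 h and 0 at 2 h, so no fold is given for that line, and the call was lost with only the groups compared and without the 2 h NIH/3T3 replicate B or C.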

How the results depend on the processing

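The 12 leading rises and 12 leading falls kept direction and call in every alternative that tested them, 15 for each gene but Fosb, which the filter at 5 CPM removed. The choice of these leading genes as large calls without overlap favours this. Of 264 genes followed, 183 kept call and direction in all. Chaf1a (0.04, adjusted p = 0.713) and Pcna (-0.01, adjusted p = 0.932) turned direction with GC and length trends removed. The count of 4878 was 7827 by limma and ranged from 3050 to 5599 with 1 library left out. The 418 genes of 2-fold size were 178 with a filter at 5 CPM and 353 to 528 with 1 library left out. From 1 h to 2 h, 2419 became 8092 by limma, 60 with only those 6 libraries fitted, and 511 to 6295 with 1 left out. From 2 h to 5 h, 3220 became 5326 by limma and 2064 to 3477. The 355 line differences became 709 by limma, 182 with only the 4 groups fitted, and 242 to 431. The causes were not tested, beyond the fewer libraries or genes that some settings hold. DESeq2 called 5037 genes at 2 h against 0 h. With library size as the only scaling, the median over all genes was -0.06, and there were 1909 rises and 3046 falls.

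Libraries with the same letter did not deviate together at 0 h and 2 h (r = -0.011 for A, 0.177 for B and 0.023 for C), so the letters were not taken as pairs. A fit with the letter as a replicate block called 4982 genes, 417 of them 2-fold, 2537 from 1 h to 2 h, 3308 from 2 h to 5 h and 355 line differences. Genes under about 1 CPM rest on few counts, and 62 of the 209 2-fold rises and 68 of the 209 2-fold falls were such genes.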

Other observations

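Some of the larger rises lay outside the lists and outside the leading genes, and the genes given here were chosen after their values were seen. Gadd45b, a growth arrest and DNA damage gene whose protein acts on stress kinases, had 10.6, 10.5 and 12.3 CPM at 0 h and 36.6, 44.9 and 44.1 CPM at 2 h (log2 fold change 1.91 ± 0.13 SE, adjusted p = 2.3e-08). Its relative Gadd45g had 69.2, 64.5 and 82 CPM at 0 h and 189, 365 and 401 CPM at 2 h (log2 fold change 2.15 ± 0.21 SE, adjusted p = 3.28e-06). Rgs16, which ends signalling of G proteins, had 13.7, 11.4 and 12.9 CPM at 0 h and 49.4, 43.8 and 41.6 CPM at 2 h (log2 fold change 1.83 ± 0.17 SE, adjusted p = 1.18e-06). Cited2, which competes for the coactivator CBP, had 160, 139 and 162 CPM at 0 h and 510, 472 and 461 CPM at 2 h (log2 fold change 1.65 ± 0.10 SE, adjusted p = 5.1e-09). None of these genes overlapped between the times, and Gadd45g was lowest in the 2 h replicate A.

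Nppb, the precursor of a natriuretic peptide, had 7.51, 8.71 and 8.05 CPM at 0 h and 17.4, 37.2 and 37.2 CPM at 2 h (log2 fold change 1.92 ± 0.22 SE, adjusted p = 1.27e-05). Here replicate A was again lowest at 2 h. Gdnf, a neurotrophic factor, had 64.9, 57.9 and 61.1 CPM at 0 h and 175, 161 and 169 CPM at 2 h (log2 fold change 1.46 ± 0.15 SE, adjusted p = 4.69e-06). Arid5a, which encodes a protein that binds and stabilises cytokine mRNA, rose by 1.96, Sertad1 by 1.90, Nuak2, a kinase related to AMPK, by 1.57, Phlda1 by 1.56 and Tsc22d1 by 1.44, with adjusted p from 1.15e-09 to 1.96e-05.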
